A study of Mus musculus with 10 samples.

Results

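The NRF2 antioxidant genes described here are Nfe2l2, which encodes the transcription factor NRF2, 6 of its textbook target genes (Nqo1, Txnrd1, Srxn1, Slc7a11, Gclc and Gclm), the superoxide dismutase genes Sod1 and Sod2, and the glutathione peroxidase gene Gpx4. They were taken by symbol, as the rows of the count tables with one of these 10 names, and all 10 were found among 24391 gene names. Each had between 69 and 4073 counts in each of the 10 libraries, and all 10 passed the filter on low counts, which left 14993 genes for the comparison of SAH with control mice.

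Bilateral whole hippocampi were collected from male mice of 10 to 14 weeks, of a strain that the study's methods print as C56BL/6J, with 1 library per mouse. In the 4 mice with subarachnoid hemorrhage (SAH) a filament passed up the carotid artery pierced the circle of Willis on one side, and tissue was taken on day 4. In 3 Sham mice the filament was advanced but did not pierce the vessel, and 3 Naive mice had no operation. Operated mice were under isoflurane, an inhaled anesthetic, so surgery and anesthesia cannot be told apart between Sham and Naive mice. SAH mice were kept only if cerebral blood flow right after the puncture had dropped by the minimum share that the study set, and whole hippocampus mixes all its cell types. The question put to these genes is whether their RNA differed between SAH mice and the 6 control mice (Sham and Naive together), and between each pair of groups.

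NRF2 is held in the cytoplasm and marked for degradation by KEAP1 until oxidants or electrophiles modify KEAP1. It then enters the nucleus, pairs with a small MAF protein and binds the antioxidant response element in the promoters of genes for glutathione synthesis, thioredoxin recycling and quinone reduction. In the brain the pathway is known mainly from astrocytes and from injuries in which blood, with its heme and iron, reaches the tissue.

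The element has the core letters TGACNNNGC, and these were searched for on both strands of the 1000 bases before each annotated protein-coding transcript start in mm9 (NCBIM37). The core lay in at least 1 window of 8 of the 10 genes, all but Gclc and Nqo1. Such short letters are common: 31% of 32950 windows and 42.1% of 13367 genes held them. The longer form TGACTCAGC, which is also a match to the core, was in 2.26% of genes and in 0 of the 10. The related TGAGTCAGC was in 1.86% of genes and in 1 of the 10, Srxn1. Both of these forms contain the AP-1 letters TGAGTCA, TGACTCAGC on its opposite strand. The site nearest a start is printed for 6 of the genes, because these genes differ in what follows, from Slc7a11, whose CPM varied most among SAH mice, to Sod1, the most abundant. Each is 30 bases of mm9, 5′ to 3′ on the stated strand, with the matched letters in capitals. Distances are from the start to the base of the match farthest from it. A match is a string of letters and not an occupied site, and no window of Gclc or Nqo1 was searched beyond its 1000 bases.
Srxn1, chr2:151931205-151931234, plus strand, 45 bases before a start: aaattcacccTGAGTCAGCggccgggcgcg
Txnrd1, chr10:82321849-82321878, minus strand, 92 bases before an internal start: ccgtgtcagaaTGACAAAGCaaaaatccag
Gclm, chr3:121948331-121948360, minus strand, 134 bases before the start: ctcgtgagagtTGACGGTGCgcccgggagc
Nfe2l2, chr2:75542941-75542970, minus strand, 262 bases before the start: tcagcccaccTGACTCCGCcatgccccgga
Slc7a11, chr3:50248387-50248416, plus strand, 871 bases before the start: aaggaaggagaTGACAGGGCatattttttg
Sod1, chr16:90220941-90220970, minus strand, 36 bases before the start: aggcctgagtcTGACCACGCccaccttggc

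Library totals ran from 19743388 to 27254655 counts. SAH mouse 3 stood apart: it was the highest or the lowest of the 10 libraries in 51.0% of the genes tested, against 9.01% to 27.7% for the other mice, and in 9 of the 10 genes described here (highest in 5 and lowest in 4). Its counts differed from those of the other SAH mice with a chi-square of 16.4 to 20.7 per degree of freedom, against 4.51 to 11.4 among those 3. Results that rest on it are given with and without it. Neuronal markers were present in every library: the 7 neuronal genes summed to between 11554 and 13207 CPM (read counts divided by the TMM-adjusted size of the library). With edgeR or DESeq2 0 of them passed the test between SAH and control (0 at an unadjusted p under 0.05). They were not set against markers of another brain region, so they cannot tell hippocampus from other brain tissue.

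Compared per transcript length, as TPM computed from the counts and exon lengths, the 10 genes covered a wide range of levels. Sod1 (chromosome 16, 90220987 to 90226569, plus strand, 5 exons) was the most abundant at 642 ± 28.9 TPM (SD, n = 10). Gpx4 followed at 270 ± 11.5 TPM, Sod2 at 117 ± 3.67 TPM and Srxn1 at 93.1 ± 2.65 TPM. Gclc had 61.6 ± 2.23 TPM, Txnrd1 42.3 ± 2.99 TPM, Gclm 40.4 ± 2.26 TPM and Nfe2l2 22.6 ± 3.31 TPM. Slc7a11 had 20.0 ± 4.04 TPM and Nqo1 was the lowest at 9.10 ± 1.94 TPM. Each gene lay above the next in this order in 10 of 10 libraries, except that Txnrd1 exceeded Gclm in 9 and Nfe2l2 exceeded Slc7a11 in 8, so that these neighbours did not separate beyond their spread. Sod1 stood at the 98.7th percentile of all tested genes by TPM and Nqo1 at the 30.1st.

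**Figure D1:**
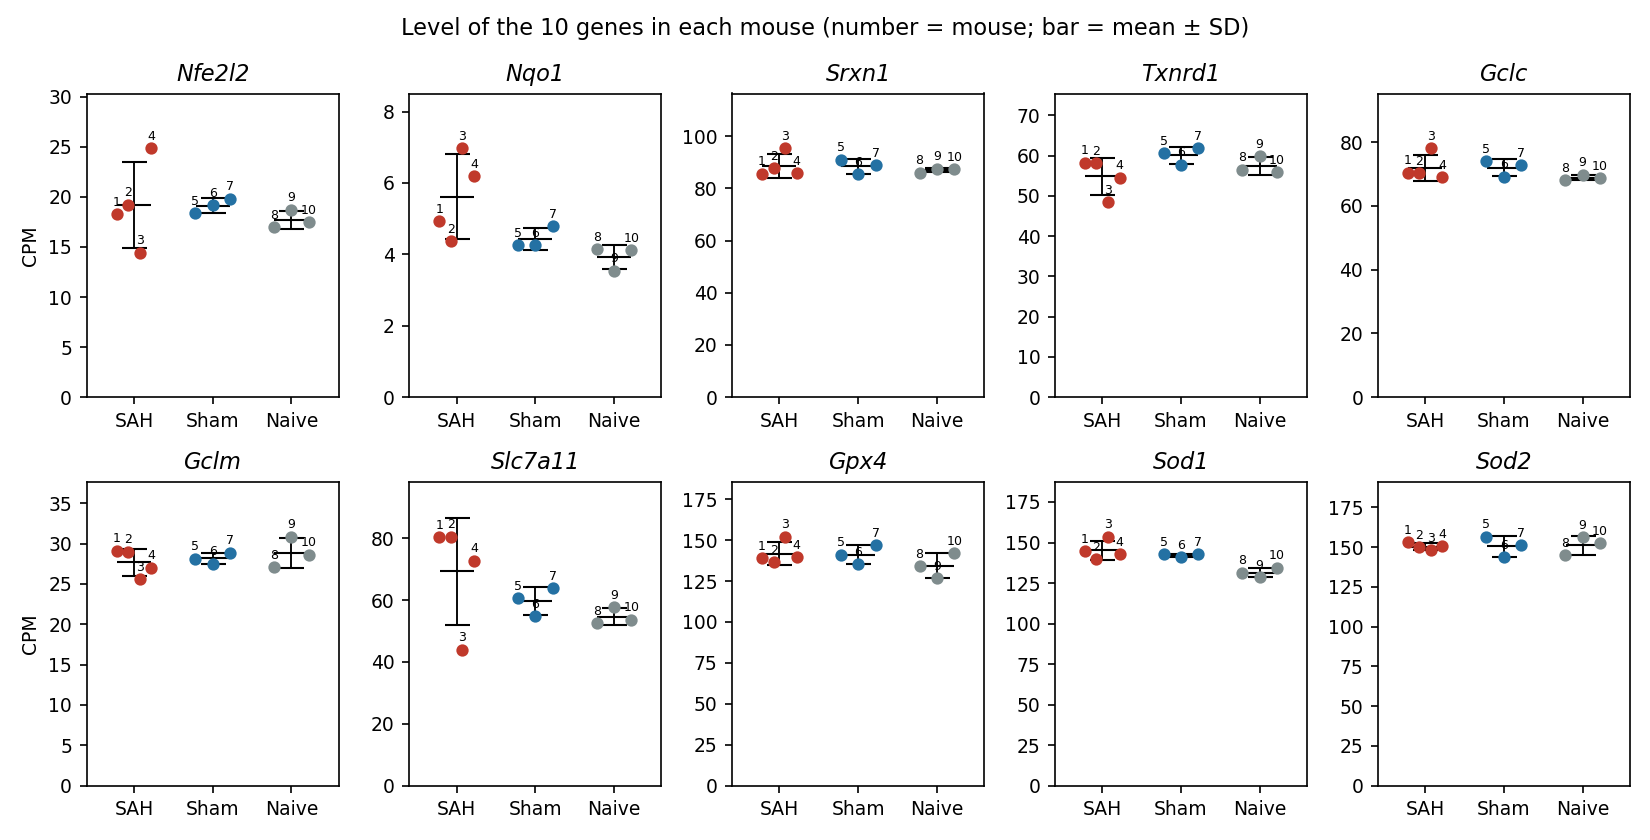
Level of each of the 10 genes in CPM (vertical axes, each with its own range) in SAH, Sham and Naive mice; a point is 1 mouse with its number and the bar is the group mean ± SD. SAH mouse 3 lies far below the other SAH mice in Slc7a11 (44.0 CPM). In Nfe2l2 mouse 3 is the lowest (14.4 CPM) and mouse 4 the highest (24.9 CPM), while the SAH points of Sod2 sit close together.

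On day 4 after SAH, 0 of the 10 genes passed the threshold of 0.10 on the adjusted p (edgeR's quasi-likelihood test, Benjamini-Hochberg over 14993 genes), where 4.68% of all genes tested did (3.13% higher and 1.54% lower). Before adjustment 2 of them, Nqo1 and Slc7a11, had a p under 0.05, as did 17% of all genes. With DESeq2, 1 of the 10 was past the adjusted threshold, Nqo1, where 6.39% of all genes were. The log2 fold changes of the 10 genes had a median of 0.036, with 7 above 0, against a median of −0.0024 over all genes tested, and ran from −0.098 (Txnrd1) to 0.42 (Nqo1). In 0 of the 10 did the CPM of the 4 SAH mice lie wholly beyond those of the 6 control mice, which held for 5.2% of all genes tested. Against Sham mice alone 0 of the 10 passed (0.72% of all genes), against Naive mice alone 0 of the 10 (2.99%), and 0 of the 10 passed between Sham and Naive mice (0.00661%), all from edgeR's fit of the 3 groups. At an unadjusted p under 0.05 these counts were 0, 3 and 1 of the 10, beside 9.69%, 14.8% and 2.02% of all genes, and with DESeq2 they were 0 (1.89% of all genes past the adjusted threshold), 1 (Sod1, where 4.55% were) and 0. The comparisons share mice, SAH mice in 3 of the 4 and controls in all, so they are not independent of one another.

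**Figure D2:**
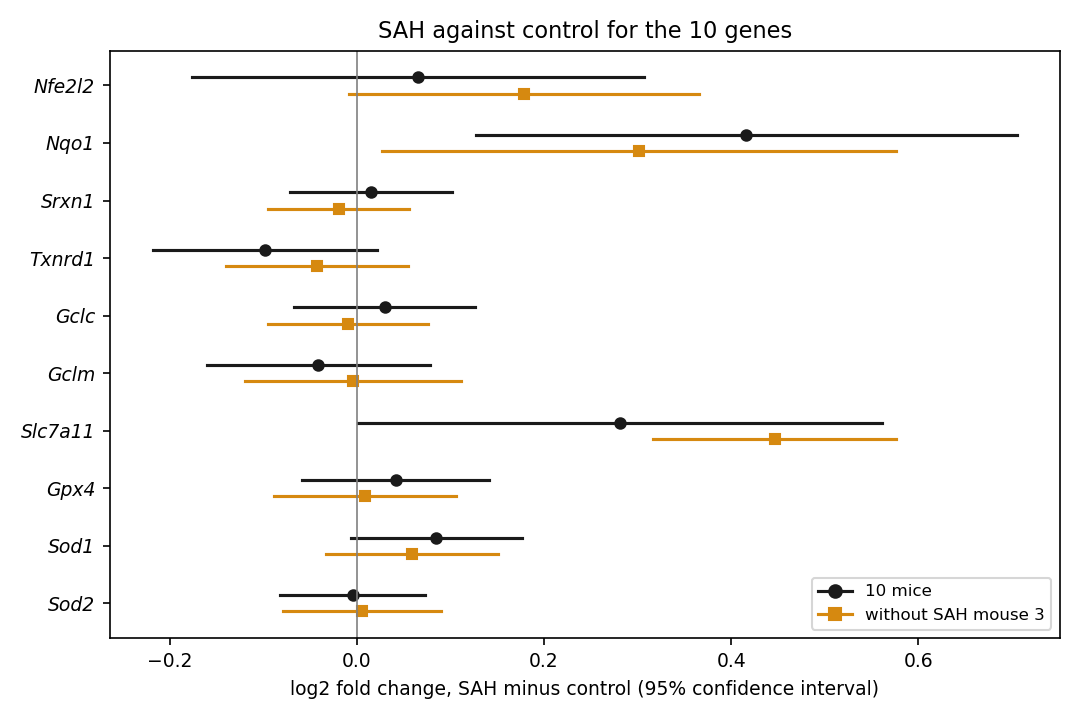
Log2 fold change of SAH over control (horizontal axis) for each of the 10 genes, with its 95% confidence interval, from all 10 mice (black circles) and without SAH mouse 3 (orange squares). Slc7a11 goes from 0.28 to 0.45 with a narrower interval when mouse 3 is left out, and the intervals of Sod2, Srxn1 and Gclc span 0 in both fits.

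Nfe2l2 (chromosome 2, 75513576 to 75542698, minus strand, 5 exons) encodes NRF2 itself, whose activity is set mostly at the level of the protein. SAH mice 1 to 4 had 18.3, 19.2, 14.4 and 24.9 CPM, Sham mice 5 to 7 had 18.4, 19.2 and 19.8 CPM, and Naive mice 8 to 10 had 17.0, 18.7 and 17.5 CPM. The SAH group thus held both the lowest and the highest of the 10 values, in mice 3 and 4, and overlapped the controls. SAH mice averaged 19.2 ± 4.30 CPM (SD, n = 4) and control mice 18.4 ± 1.07 CPM (SD, n = 6), a difference of 0.066 on the log2 scale (standard error 0.112, edgeR adjusted p = 0.795). The SD of log2 CPM among SAH mice was 0.32, beside a median of 0.14 over all genes tested. Which SAH mouse entered decided its sign: the log2 fold change was 0.18 without mouse 3 (edgeR adjusted p = 0.403) and −0.084 without mouse 4 (edgeR adjusted p = 0.649), and neither passed. Against Sham mice it was 0.010 (edgeR adjusted p = 0.987) and against Naive mice 0.12 (edgeR adjusted p = 0.711).

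Nqo1 (chromosome 8, 109912125 to 109927105, minus strand, 6 exons) encodes the quinone reductase that is often used as a readout of NRF2 activity. SAH mice 1 to 4 had 4.93, 4.38, 6.97 and 6.20 CPM, from 102 to 155 counts. The Sham values were 4.25, 4.26 and 4.79 CPM and the Naive values 4.14, 3.55 and 4.12 CPM, from 69 to 119 counts. All SAH mice lay above all Naive mice, which was also the case, in one direction or the other, for 13.8% of genes, and SAH mouse 2 lay below Sham mouse 7. All Sham mice lay above all Naive mice as well, a comparison in which 8.99% of all genes had no overlap. SAH mice averaged 5.62 ± 1.18 CPM (SD, n = 4) and control mice 4.18 ± 0.396 CPM (SD, n = 6). This was 33.5% more (95% confidence interval 9.24% to 63.0%) on a log2 fold change of 0.42 (standard error 0.13), and the test was not passed (edgeR adjusted p = 0.129). The value was close to the threshold and fell on either side of it: DESeq2 gave 0.42 with an adjusted p of 0.0878, edgeR without SAH mouse 2 gave 0.52 with an adjusted p of 0.0423 (where 7.25% of all genes passed), and edgeR without SAH mouse 3 gave 0.30 with an adjusted p of 0.316. The log2 difference was 0.34 against Sham (edgeR adjusted p = 0.535) and 0.50 against Naive (edgeR adjusted p = 0.165, and 0.0649 without SAH mouse 2, where 4.53% of all genes passed). Without SAH mouse 3 it was 0.22 against Sham (edgeR adjusted p = 0.766) and 0.39 against Naive (edgeR adjusted p = 0.266).

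The order of Nqo1 among the SAH mice matched that of other cells' RNA in part. The 8 marker genes of choroid plexus epithelium, which lies next to the hippocampus, summed to 102, 217, 1236 and 867 CPM in SAH mice 1 to 4, to 212, 57.5 and 832 CPM in the Sham mice and to 67.8, 44.3 and 53.3 CPM in the Naive mice. Most of this sum was 1 gene: Ttr averaged 530 CPM in SAH mice, where the 8 genes together averaged 606 CPM. Of these 8 genes 0 passed the test between SAH and control with edgeR or DESeq2 (3 at an unadjusted p under 0.05), 8 had a positive log2 fold change, and 0 were at 0 counts in all libraries. Against Naive mice alone 2 of the 8 were higher with edgeR and 4 with DESeq2, and 8 had an unadjusted p under 0.05. Slc4a5 reached the filter on low counts in 4 of 4 SAH and 2 of 6 control libraries, and without it the counts at an unadjusted p under 0.05 are 2 of 7 against control and 7 of 7 against Naive, and DESeq2 calls 3 against Naive. The mouse with the highest choroid plexus sum also had the highest Nqo1 CPM among SAH mice (mouse 3) and among Sham mice (mouse 7), and in Naive mice it was mouse 8, with 4.14 CPM of Nqo1 beside 4.12 CPM in mouse 10. Other pairs did not keep this order: SAH mouse 1 had a lower sum than SAH mouse 2 and Sham mouse 7 but more Nqo1 than either, and Sham mice 5 and 6 had nearly equal Nqo1 at sums of 212 and 57.5 CPM. Other marker lists shared parts of this order. Astrocyte sums were also highest in SAH mouse 3 (6416 CPM) and Sham mouse 7 (5711 CPM). They were lowest among SAH mice in mouse 2 (5282 CPM), and highest among Naive mice in mouse 10 (5674 CPM). Endothelial sums were highest in SAH mice 4 (229 CPM) and 3 (183 CPM), but in Sham mouse 6 (119 CPM) and Naive mouse 9 (144 CPM). The part of any of these cells in the Nqo1 result was not tested. In tissue RNA, more cells of a type and more RNA per cell cannot be told apart, for these markers as for the genes described here.

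**Figure D3:**
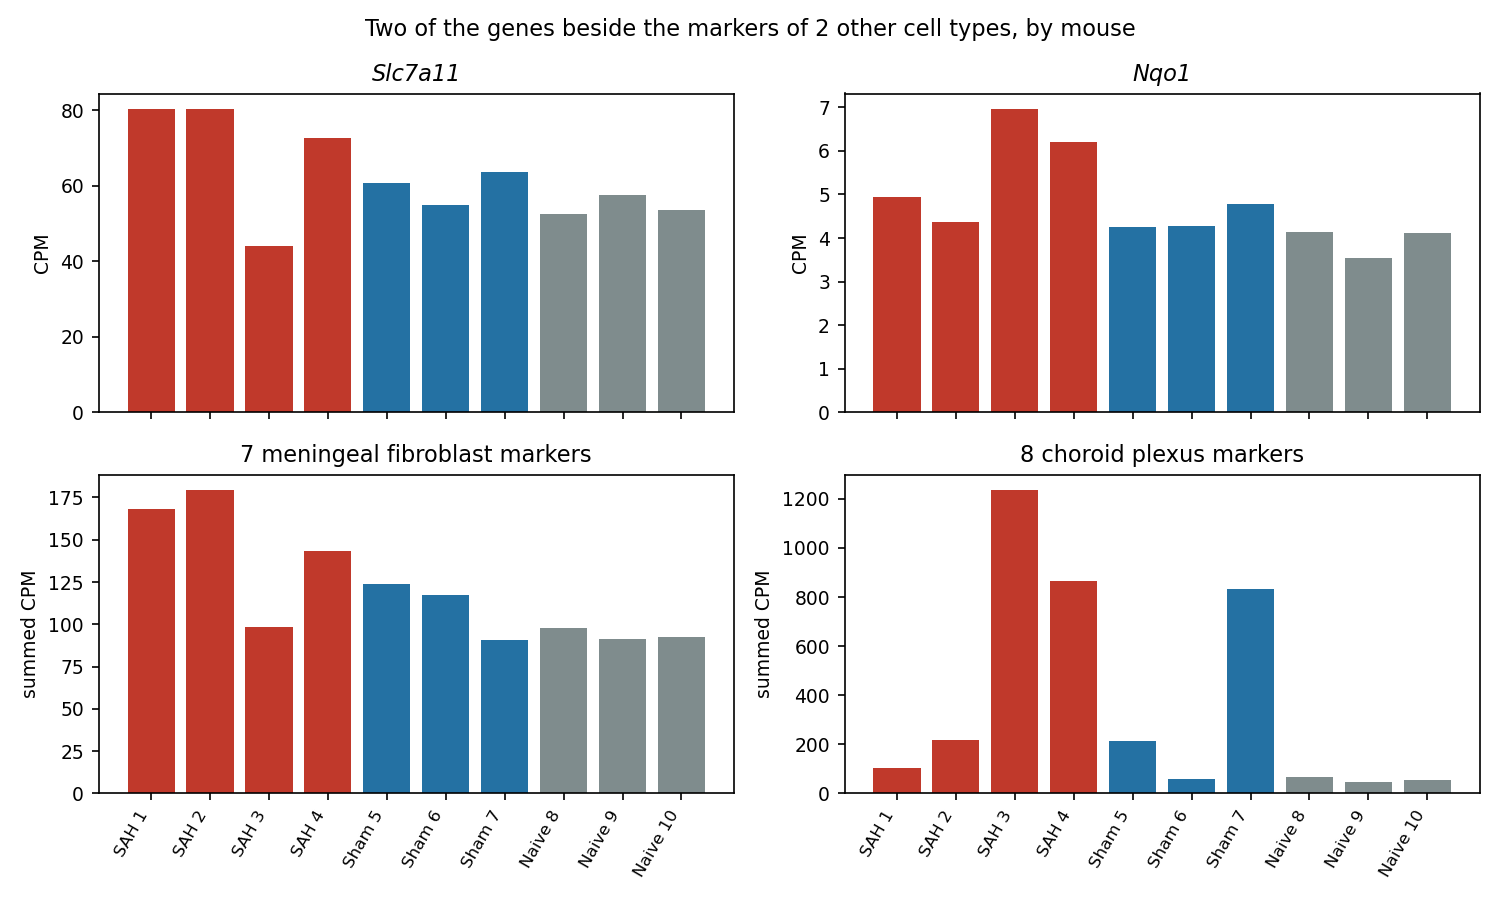
Bars per mouse, coloured by group, of Slc7a11 and Nqo1 (CPM) and of the summed CPM of 7 meningeal fibroblast markers and 8 choroid plexus epithelium markers. Both Slc7a11 and the meningeal sum are highest in SAH mice 1 and 2 and lowest among SAH mice in mouse 3, and both Nqo1 and the choroid plexus sum are highest in SAH mice 3 and 4.

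Txnrd1 and Srxn1 serve the thioredoxin side of the pathway: thioredoxin reductase 1 recycles thioredoxin in the cytosol, and sulfiredoxin restores peroxiredoxins that have been over-oxidized. Txnrd1 (chromosome 10, 82296696 to 82360469, plus strand, 18 exons) had 58.3, 58.1, 48.4 and 54.6 CPM in SAH mice 1 to 4, 60.6, 57.8 and 61.8 CPM in Sham and 56.5, 59.9 and 55.9 CPM in Naive mice. The values of SAH mice 3 and 4 lay below all controls and those of mice 1 and 2 within them. Its mean of 54.8 ± 4.62 CPM (SD, n = 4) against 58.8 ± 2.39 CPM (SD, n = 6) was the lowest log2 fold change of the 10 genes, −0.098 (standard error 0.056, edgeR adjusted p = 0.396), with a 95% interval of −0.22 to 0.021. Txnrd1 was at −0.042 on the log2 scale once SAH mouse 3 was omitted (edgeR adjusted p = 0.766). The differences were −0.13 against Sham (edgeR adjusted p = 0.569) and −0.066 against Naive (edgeR adjusted p = 0.681). Without SAH mouse 3 they were −0.075 (edgeR adjusted p = 0.783) and −0.0083 (edgeR adjusted p = 0.966).

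Srxn1 (chromosome 2, 151931260 to 151937112, plus strand, 2 exons), the one gene of the 10 with the TGAGTCAGC letters before its start, had 85.6, 87.6, 95.4 and 85.9 CPM in SAH mice 1 to 4. Sham mice had 91.0, 85.4 and 88.8 CPM and Naive mice 86.0, 87.6 and 87.5 CPM. Apart from SAH mouse 3 all SAH values lay among the controls. The log2 fold change of 0.015 (standard error 0.040, edgeR adjusted p = 0.879) leaves an interval of −4.85% to 7.28%, and it was −0.019 without SAH mouse 3 (edgeR adjusted p = 0.877).

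Slc7a11, Gclc and Gclm supply glutathione: the first encodes the xCT subunit of the transporter that brings in cystine in exchange for glutamate, and the others encode the catalytic and the modifier subunit of glutamate cysteine ligase, the rate-limiting enzyme of the synthesis. Slc7a11 (chromosome 3, 50168858 to 50247535, minus strand, 12 exons) had 80.3, 80.5, 44.0 and 72.7 CPM in SAH mice 1 to 4. Sham mice had 60.7, 54.8 and 63.8 CPM and Naive mice 52.5, 57.7 and 53.7 CPM. SAH mice 1, 2 and 4 were thus above every control mouse, and SAH mouse 3 was below every one of them. Over all 4 SAH mice the mean was 69.4 ± 17.3 CPM (SD, n = 4) against 57.2 ± 4.39 CPM (SD, n = 6) in control. The log2 fold change was 0.28 (standard error 0.13, 95% interval 0.0011 to 0.56) and did not pass (edgeR adjusted p = 0.292). With the same 4 SAH mice it was 0.22 against Sham (edgeR adjusted p = 0.699) and 0.35 against Naive mice (edgeR adjusted p = 0.336). The SD of Slc7a11 log2 CPM among SAH mice, 0.42, was the highest of the 10 genes, beside 0.11 among controls.

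With SAH mouse 3 left out, Slc7a11 rose by 36.3% (95% interval 24.6% to 49.1%), a difference of 0.45 on the log2 scale (standard error 0.061, edgeR adjusted p = 0.00107), and it was the 1 of the 10 genes that passed, where 3.77% of all genes tested did. In the same fit it passed against Sham (log2 fold change 0.38, edgeR adjusted p = 0.0140; 1.42% of all genes passed) and against Naive mice (0.51, edgeR adjusted p = 0.000796; 3.25% passed). The remaining 3 SAH mice did not overlap the 6 controls, as 6.95% of all genes did not. The library left out is the one that stood apart across the transcriptome, but it is also the one whose Slc7a11 value went the other way. The Slc7a11 log2 CPM of mouse 3 minus the mean of the other SAH mice was −0.82, at the 2.21 percentile of that difference over all genes tested, so that 1 library decided this call.

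Markers of meningeal fibroblasts, cells of the membranes around the brain, followed the order of Slc7a11 in part of the mice. The 7 genes summed to 168, 179, 98.5 and 143 CPM in SAH mice 1 to 4, to 124, 118 and 90.7 CPM in Sham and to 97.6, 91.5 and 92.6 CPM in Naive mice. Of these 7 genes 6 were higher in SAH than in control (median log2 fold change of the 7, 0.98), and 0 of the 7 were at 0 counts in all libraries. SAH mice 1, 2 and 4 lay above every control in this sum as in Slc7a11, and SAH mouse 3 did not. Elsewhere the order differed: SAH mouse 3 was above 4 of the 6 controls in the marker sum and below all 6 in Slc7a11. The highest Slc7a11 values of the Sham (mouse 7) and Naive (mouse 9) groups came with the lowest marker sums of those groups. The part of these cells in the Slc7a11 difference was not tested.

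Gclc (chromosome 9, 77602342 to 77642296, plus strand, 16 exons) had 70.5, 70.2, 78.1 and 69.1 CPM in SAH mice 1 to 4, between 69.2 and 74.2 CPM in Sham and between 68.1 and 69.8 CPM in Naive mice. Only SAH mouse 3 lay outside the control values. SAH mice averaged 72.0 ± 4.14 CPM (SD, n = 4) and control mice 70.5 ± 2.44 CPM (SD, n = 6), a difference of 0.030 on the log2 scale (standard error 0.045, edgeR adjusted p = 0.766) with an interval of −4.56% to 9.17%. Without SAH mouse 3 it was −0.0093 (edgeR adjusted p = 0.951).

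Gclm (chromosome 3, 121948475 to 121970133, plus strand, 7 exons) had 29.1, 29.0, 25.6 and 27.0 CPM in SAH mice 1 to 4, between 27.5 and 28.9 CPM in Sham and between 27.1 and 30.9 CPM in Naive mice. Its log2 fold change was −0.041 (standard error 0.055, edgeR adjusted p = 0.737), with an interval of −10.5% to 5.55%, and it was −0.0038 without SAH mouse 3 (edgeR adjusted p = 0.986). SAH mice 3 and 4 were the lowest of the 10 libraries. The ratio of the subunits, which does not depend on library scaling, was taken within each library as the log2 of Gclm over Gclc counts. It was −1.28 in SAH mice 1 and 2, −1.61 in mouse 3 and −1.35 in mouse 4, with a mean of −1.38 ± 0.16 (SD, n = 4), against −1.31 ± 0.075 (SD, n = 6) in control. The difference of −0.074 was within the spread between mice (2-sided exact permutation test over 210 splits of the mice, p = 0.457, adjusted over the 2 ratios 0.457), and it was 0.0038 without SAH mouse 3.

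Sod1, Sod2 and Gpx4 encode enzymes that act on the oxidants themselves: the superoxide dismutases of the cytosol and of mitochondria, and the selenoenzyme that reduces lipid hydroperoxides in membranes. Sod1 had 145, 139.8, 154 and 143 CPM in SAH mice 1 to 4, 143, 141 and 143 CPM in Sham and 131, 129 and 134 CPM in Naive mice. SAH and Sham mice overlapped. All SAH mice and all Sham mice lay above the Naive mice, where 13.8% and 8.99% of all genes had no overlap in these comparisons. In group means this was 145 ± 5.92 CPM (SD, n = 4), 142 ± 1.04 CPM (SD, n = 3) and 131 ± 2.94 CPM (SD, n = 3). The log2 fold change was 0.085 against control (standard error 0.042, edgeR adjusted p = 0.334) and 0.030 against Sham (edgeR adjusted p = 0.851). Once SAH mouse 3 was omitted these were 0.059 (edgeR adjusted p = 0.619) and 0.0040 (edgeR adjusted p = 0.994). Against Naive it was 0.14, 10.4% more with an interval of 3.37% to 17.8%, and did not pass with edgeR (adjusted p = 0.140), while DESeq2 gave an adjusted p of 0.0762. Between Sham and Naive mice, which differ by the operation without puncture, it was 0.11 (edgeR adjusted p = 0.99976, unadjusted p = 0.0310), beside the 0.030 between SAH and Sham mice.

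Sod2 (chromosome 17, 13200705 to 13210985, plus strand, 5 exons) was the steadiest gene among SAH mice, with 153, 149.8, 148 and 151 CPM in mice 1 to 4 and an SD of log2 CPM of 0.020, the lowest of the 10. Sham mice had between 144 and 156 CPM and Naive mice between 145 and 156 CPM, and all SAH values lay within those ranges. SAH mice averaged 150.3 ± 2.10 CPM (SD, n = 4) and control mice 151 ± 5.49 CPM (SD, n = 6). The log2 fold change of −0.0043 (standard error 0.036, edgeR adjusted p = 0.965) had the narrowest interval of the 10 genes, −5.51% to 5.20%. The log2 ratio of Sod2 to Sod1 counts averaged 0.051 ± 0.071 (SD, n = 4) over SAH mice and 0.14 ± 0.086 (SD, n = 6) over control mice. The difference of −0.090 did not pass (2-sided exact permutation test, p = 0.143, adjusted over the 2 ratios 0.286), but adjusted p was 0.0635 without Sham mouse 6, under the 0.10 threshold, with a difference of −0.11, and 0.714 without SAH mouse 3, with a difference of −0.055. Against Naive mice alone it was −0.15, with p = 0.0571, the smallest that the 35 splits of 4 and 3 mice allow in a 2-sided exact permutation test (adjusted over the 2 ratios 0.114).

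Gpx4 (chromosome 10, 79509911 to 79519184, plus strand, 10 exons) had 139, 137, 152 and 139 CPM in SAH mice 1 to 4, between 135 and 147 CPM in Sham and between 127 and 142 CPM in Naive mice. Apart from SAH mouse 3, which was the highest of the 10 libraries, SAH mice lay within the controls. The log2 fold change of 0.042 (standard error 0.046, edgeR adjusted p = 0.678) had an interval of −3.95% to 10.3%, and was 0.0085 without SAH mouse 3 (edgeR adjusted p = 0.959).

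The rest of the redox machinery was read from 8 lists of 106 further genes, of which 99 were tested between SAH and control: 9 were higher (8 without Osgin1, which reached the filter on low counts only through SAH mice) and 1 was lower, beside 4.68% of all genes called, and their median log2 fold change was 0.041. DESeq2 called 14 higher and 1 lower, where it called 6.39% of all genes. Leaving out single mice moved the number higher from 4 (without SAH mouse 4, where 2.05% of all genes were called) to 16 (without SAH mouse 2, where 7.25% were). It was 5 when SAH mouse 3 (3.77% of all genes), Naive mouse 8 (2.42%) or Naive mouse 9 (2.85%) was omitted. Against Sham alone 0 of 100 tested passed with edgeR (0.72% of all genes), with 22 at an unadjusted p under 0.05 (9.69% of all genes) and 1 past the threshold with DESeq2 (1.89%). Against Naive alone 5 of 100 passed with edgeR (2.99% of all genes), with 23 at an unadjusted p under 0.05 (14.8%) and 8 higher and 1 lower with DESeq2 (4.55%).

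Among 13 regulators and partners of NRF2 (KEAP1 and its ubiquitin ligase, the small MAF proteins and relatives of NRF2), 0 passed with edgeR (2 at an unadjusted p under 0.05, and 1, Maff, with DESeq2) and the median log2 fold change was 0.0086. The most abundant were Sqstm1, which encodes the autophagy receptor p62 that binds KEAP1, at 0.027 (edgeR adjusted p = 0.758), and Nfe2l1, a relative of Nfe2l2, at −0.028 (edgeR adjusted p = 0.734). Keap1 itself, named after its values were seen, was at −0.030 (edgeR adjusted p = 0.762).

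Of 23 other NRF2 target genes 3 rose (2 without Osgin1, described last; 1, Hmox1, without SAH mouse 3, and 5 with DESeq2, which added Ephx1 and Abcc4) and 0 fell, with a median log2 fold change of 0.026. Hmox1, which encodes the heme oxygenase that breaks down heme, had 8.37, 6.84, 13.7 and 8.99 CPM in SAH mice 1 to 4 and between 4.82 and 6.40 CPM in the controls, without overlap. The difference of 0.79 on the log2 scale (standard error 0.16, edgeR adjusted p = 0.0191) was past the threshold with any mouse left out, from 0.56 without SAH mouse 3 to 0.92. Ftl1, the ferritin light chain, which stores iron, had 152, 141, 160 and 158 CPM in SAH mice and between 131 and 140 CPM in control mice. It rose by 0.16 on the log2 scale (edgeR adjusted p = 0.0528), and the call was lost without SAH mouse 3 (0.14, edgeR adjusted p = 0.110), SAH mouse 4 or any 1 of the 3 Naive mice. Osgin1, an oxidative stress induced growth inhibitor, was tested only because of its SAH values: the filter's level of 0.409 CPM before TMM scaling was reached in 4 of 4 SAH and 1 of 6 control libraries, so its difference supports nothing on its own. It had at most 15 counts in a library, with 0.515 to 0.725 CPM in SAH and 0.150 to 0.443 CPM in control. Its log2 fold change of 1.13 (edgeR adjusted p = 0.0674) passed in 3 of the 10 leave-one-out fits and was lost without SAH mouse 1, 3 or 4, Sham mouse 5 or 6, or Naive mouse 8 or 9.

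Glutathione synthesis and recycling held 1 gene of 18 past the threshold, and it was lower. At an unadjusted p under 0.05 there were 4 (17% of all genes), and 13 of the 18 had a positive log2 fold change, with a median of 0.016. Gss, the glutathione synthetase that completes the tripeptide after the step of Gclc and Gclm, had between 14.5 and 16.3 CPM in SAH and between 16.9 and 19.7 CPM in control mice, without overlap. It fell by 0.24 on the log2 scale (standard error 0.062, edgeR adjusted p = 0.0613), and passed in 4 of the 10 leave-one-out fits. The call was lost without SAH mouse 4, Sham mouse 6 or 7, or any 1 Naive mouse. The most abundant genes of the list were Slc1a1, a glutamate and cysteine transporter, at 0.062 (edgeR adjusted p = 0.595), and Slc3a2, the partner chain of xCT, at 0.049 (edgeR adjusted p = 0.613).

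In the thioredoxin and peroxiredoxin list 2 of 15 genes rose. Msrb3, a methionine sulfoxide reductase, had 6.96 to 7.98 CPM in SAH and 5.16 to 6.32 CPM in control mice, a log2 fold change of 0.45 (standard error 0.090, edgeR adjusted p = 0.0167) that passed with any mouse left out. Prdx6, a peroxiredoxin abundant in astrocytes, had 216, 188, 265 and 233 CPM in SAH mice against 178 to 209 CPM in control mice. The difference of 0.28 on the log2 scale (edgeR adjusted p = 0.0718) passed in 3 of the 10 leave-one-out fits, and was 0.20 without SAH mouse 3 (edgeR adjusted p = 0.147). The call was also lost without SAH mouse 4, Sham mouse 5 or 6, or any 1 Naive mouse. Of 8 astrocyte markers 1 was higher in SAH, Gfap, the intermediate filament gene of reactive astrocytes, and their sums were 5282 to 6416 CPM in SAH against 5226 to 5711 CPM in control mice. The part of astrocytes in the Prdx6 difference was not tested.

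Of 7 tested genes for other removal of superoxide and peroxide 1 rose, Sod3, the extracellular superoxide dismutase, with 11.1 ± 0.726 CPM (SD, n = 4) after SAH beside 9.39 ± 0.256 CPM (SD, n = 6) without it. At 0.24 on the log2 scale it passed (edgeR adjusted p = 0.0802), and it did so in 1 of the 10 leave-one-out fits, the one without SAH mouse 2. The log2 fold changes were 0.092 for Gpx1 (edgeR adjusted p = 0.406) and −0.012 for Cat, catalase (edgeR adjusted p = 0.922). DESeq2 called Sod3 and Gpx3 of this list. Gpx2 had 5 counts over all libraries and was not tested.

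Ferroptosis genes held 0 of 9 past the threshold with either edgeR or DESeq2 (1 at an unadjusted p under 0.05), with Tfrc, the transferrin receptor, at 0.16 (edgeR adjusted p = 0.399) and Acsl4, which loads polyunsaturated fatty acids into membrane lipids, at 0.049 (edgeR adjusted p = 0.5002). Selenoprotein synthesis, on which Gpx4 and Txnrd1 depend, held 0 of 7 with edgeR and 1, Sepp1, with DESeq2 (1 at an unadjusted p under 0.05 with edgeR). Sepp1, the selenium carrier of plasma, was at 0.27 (edgeR adjusted p = 0.101), just outside the threshold, and Sephs2 at 0.029 (edgeR adjusted p = 0.831).

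Genes for enzymes that make superoxide had the highest median of the 8 lists. Of its 11 genes 7 were tested, while Nox1, Nox4, Duox1 and Duox2 did not reach the filter on low counts. Of the 7 tested, 3 rose and all 7 had a positive log2 fold change, with a median of 0.45. Against Sham alone 0 of the 7 passed with edgeR (0.72% of all genes) or DESeq2 (1.89%), with 4 at an unadjusted p under 0.05 (9.69%). Against Naive alone 2 passed with edgeR (2.99%) and 3 with DESeq2 (4.55%). Cybb, the catalytic subunit of the phagocyte NADPH oxidase, had 2.03, 1.47, 1.06 and 2.40 CPM in SAH mice 1 to 4 and between 0.154 and 0.908 CPM in control mice, from 3 to 60 counts. Its log2 fold change of 1.54 (standard error 0.32, edgeR adjusted p = 0.0201) and that of its partner subunit Cyba, 0.59 (standard error 0.13, edgeR adjusted p = 0.0273), passed with any mouse left out. Xdh, xanthine dehydrogenase, had 2.90, 2.28, 15.5 and 9.27 CPM in SAH mice 1 to 4 and 1.53 to 2.46 CPM in control mice, so that SAH mouse 2 overlapped Sham mouse 6. Its log2 fold change was 1.97 (standard error 0.43, edgeR adjusted p = 0.0282), 1.36 without SAH mouse 3, and the call was lost without SAH mouse 4.

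**Figure D4:**
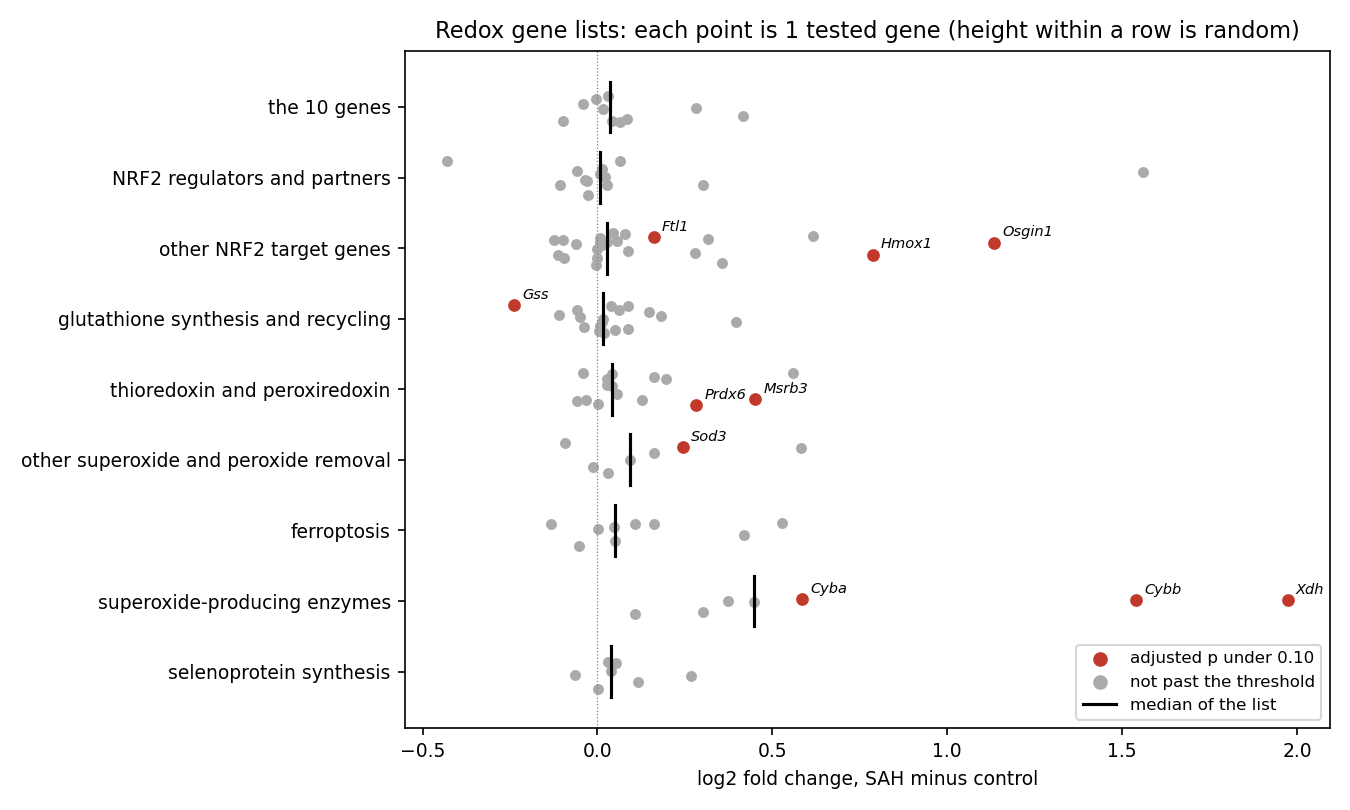
Log2 fold change of SAH over control (horizontal axis) of every tested gene of the 8 redox lists and of the 10 NRF2 antioxidant genes, 1 row per list, in red and named where the adjusted p was under 0.10 and in grey otherwise, with a black bar at the median of each list (height within a row is random). Most points lie near 0, the row of the 10 genes holds no red point, and the superoxide-producing enzymes lie to the right with 3 red points.

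Some markers of immune and vascular cells were also higher in SAH than in control mice. Their order by mouse was not compared with that of the superoxide-producing genes. Of 8 microglial markers 3 were higher in SAH and their sums were 401 to 489 CPM in SAH against 372 to 415 CPM in control mice. Of 4 tested markers of border macrophages and monocytes 3 were higher (2 without Ms4a7, which reached the filter in 1 of 6 control libraries), with sums of 13.2 to 17.1 CPM against 4.63 to 8.73 CPM, and of 6 endothelial markers 3 were higher, with sums of 117 to 229 CPM against 104 to 144 CPM. Among mural cell markers 3 of 5 were higher (98.2 to 143 CPM against 75.6 to 92.6 CPM), and 6 of 6 oligodendrocyte markers were lower (2301 to 2957 CPM against 3365 to 4583 CPM). With edgeR and DESeq2 0 of the 3 ependymal markers passed, with 1 at an unadjusted p under 0.05 (16.9 to 19.1 CPM against 15.7 to 24.98 CPM). Neutrophil markers S100a8 and S100a9 had 53 and 64 counts over all 10 libraries, 0 of that list were tested, and red blood cells could not be measured: the 6 globin genes of their list are listed at 0 in every library, while Alas2, the remaining gene, had 480 counts over all libraries and did not pass. The part of these cells in the differences was not tested.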

How the data were processed

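RNA sequencing covered 10 mouse hippocampi. The authors made stranded libraries after ribosomal depletion (50-base read pairs), aligned them to mm9 with STAR and counted fragments per gene name with featureCounts 1.6.2, leaving out multi-mapped and ambiguous reads. The submitters' processing notes list GRCh38 beside mm9, and 80 of the 86 exons of the 10 genes match mm9 annotation exactly. The deposited values are counts, whole and not normalized, 1 table per mouse, grouped by the labels.

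From them CPM (TMM), TPM and log2 fold changes were computed here with edgeR 4.0.16 in R 4.3.3: filterByExpr (minimum count 10, total 15), the quasi-likelihood test, Benjamini-Hochberg adjustment over all genes tested, threshold 0.10. SAH (4) was compared with Sham and Naive pooled (6), and pairs came from a 3-group fit. Subunit ratios used 2-sided exact permutation tests. Alternatives were DESeq2 1.42.0, other scalings, filters, thresholds and control groups, a robust fit, and each mouse left out. The code was tested on simulated data.

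The 10 genes, taken by symbol, and the lists were chosen with earlier results of these data known. Named were the 10 genes, list genes past the threshold (at most 6 per list) and, where fewer than 2 passed, the 2 most abundant. Keap1 and the genes that only DESeq2 called were named after their values were seen. Motifs were read from the mm9 reference. Protein sequences and reads were not used here. Each library is 1 mouse.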

Additional observations from a re-analysis of the deposited data

Results flagged for a closer look

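Gclc in SAH mouse 3, at 78.1 CPM, lay apart from the other SAH mice, of which the nearest had 70.5 CPM: this gap was 0.847 of the range of the 4 mice, above Dixon's 95% critical value for 4 values. The 10 genes were examined in SAH and in control mice, 20 groups of values in all, and chance flags about 1 in 20 groups. Slc7a11 in the same mouse (44.0 CPM) had a gap of 0.787 of the range and Gpx4 one of 0.811, both under it.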

How the results depend on the processing

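No paired analysis was possible because the labels number the mice 1 to 10 without a number shared between groups. Of the 10 genes, the number higher in SAH than in control and in SAH than in Naive went from 0 to 1 with DESeq2, which called Nqo1 (0.42, adjusted p = 0.0878) and, against Naive, Sod1 (0.14, adjusted p = 0.0762). Leaving out each mouse in turn gave 0 to 1 higher against control, Sham and Naive, and 4 to 16 higher and 0 to 1 lower in the pathway lists, where DESeq2 called 14 higher (of all genes against control, 2.05% to 7.25% were called in the fits without 1 mouse and 6.39% with DESeq2, and without 1 mouse 0.0393% to 1.42% were called against Sham and 0.714% to 4.53% against Naive). In those fits the log2 fold change against control ran from −0.0093 to 0.049 for Gclc, from −0.019 (without SAH mouse 3) to 0.030 for Srxn1, from −0.018 to 0.0066 for Sod2 and from −0.084 (without SAH mouse 4) to 0.18 for Nfe2l2. Sod2 was at 0.0056 without SAH mouse 3, 0.0066 without Sham mouse 5 and 0.0059 without Naive mouse 9. For Nfe2l2 the range was −0.14 (without SAH mouse 4) to 0.12 against Sham, with −0.017 without Sham mouse 5, and −0.027 (without SAH mouse 4) to 0.24 against Naive. The log2 ratio of Gclm to Gclc differed by −0.11 to 0.0038, and that of Sod2 to Sod1 by −0.11 (without Sham mouse 6) to −0.055. With library size alone Sod2 was at 0.00090, and with Sham mice alone as control Gclc was at −0.0024. The cause of each change was not tested. For Gclm, Gpx4, Sod1 and Txnrd1 against control, 20 of 20 alternatives kept the direction and the side of the threshold.

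Nqo1, at 69 to 155 counts per library, is the least deeply counted of the 10 genes and has the widest interval (9.24% to 63.0%). The median log2 fold change of all genes was −0.0024 with TMM and 0.0027 with library size alone. SAH mouse 3 differed from the mean of the other SAH mice by a median absolute log2 difference of 0.17 over all genes. In 5 bins of genes the median signed difference ran from −0.026 to 0.022 by length and from −0.022 to 0.010 by GC content.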
